A study of Mus musculus with 2 samples.

Results

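The members of the Ifi200 and guanylate-binding protein (Gbp) families described here were Ifi203, Ifi204, Ifi205, Ifi207, Ifi209 and Ifi211, which make 6 Ifi200 members, and Gbp2, Gbp3, Gbp5 and Gbp7, which make 4 Gbp members. They were taken by symbol from the 32544 genes of the gene table, and all 10 were found. Their transcripts were counted by single-cell mRNA sequencing (scRNA-Seq) in mouse bone marrow-derived monocytes (BMDMs) from femurs, cultured with M-CSF at 50 ng/ml and RANKL at 100 ng/ml to induce osteoclasts (OCs), myeloid cells that resorb bone. There was 1 library of the genotype labelled control and 1 of the genotype LysM-Cre;Arid1afl/fl, called the mutant library below. Both cultures received the same cytokines, and the study's methods put collection 24 h after RANKL and the age of donor mice for bone marrow culture at 4 to 6 weeks. In LysM-Cre mice the recombinase Cre is driven by Lyz2, a gene of myeloid cells, and deletes floxed sequence of Arid1a, a DNA-binding subunit of the BAF chromatin remodeling complex. The alleles carried by the control were not given in the labels, and neither was the number of animals behind a library. Recombination may spare some cells of a culture.

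Proteins of the Ifi200 family, also called PYHIN proteins, are named after the pyrin domain and the HIN domain. The pyrin domain binds other proteins of its kind, the HIN domain binds DNA, and some members carry only 1 of them. Several sit in the nucleus or sense DNA in the cytosol, among them Aim2, which builds an inflammasome on DNA. Guanylate-binding proteins are large GTPases that assemble on the vacuoles and surfaces of intracellular pathogens and help to open them to cytosolic sensors. Genes of both families are induced by interferons in macrophages, which are of the same lineage as OCs. Type I interferons act through a complex that holds Stat2 and Irf9 on interferon-stimulated response elements, and interferon gamma acts on gamma-activated sequences and through Irf1.

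All 6 Ifi200 members lie in 1 gene cluster on chromosome 1, from 173458380 to 173859456 in GRCm39, with Ifi209 on the plus strand and the other 5 on the minus strand. The cluster also holds Ifi208, Mndal and Ifi202b. The 4 Gbp members lie on chromosome 3 from 142199739 to 142343779, all on the plus strand, with Gbp2b between Gbp3 and Gbp2. None of the members overlaps another gene of the gene table on either strand. Promoter sequences were available from RefSeq (GRCm38.p6) for 9 members, all but Ifi204 (chromosome 1, 173574859 to 173594610 in GRCm39, minus strand), as the 250 bases before to the 50 bases after each start site. The letters GAAA, any 2 bases and GAAA again, the core of an interferon-stimulated response element, were searched on both strands. They stood whole between positions -75 and -16 of the start site in 6 of these 9 genes (for Ifi203 at the second of its 2 start sites, and for Gbp3 at the first of its 2). Of all 32851 promoters in the same table, 0.560% held them there and 3.44% held them anywhere in the window. These shares are per promoter, while a member with 2 start sites was counted if either held a match. The limits -75 and -16 were not part of the plan fixed beforehand, so the contrast is only a description. The 60 bases from -75 to -16 are printed below for the genes with a match there and for Ifi209, with matches in capitals. Each is 5′ to 3′ on the strand of its gene, in coordinates of GRCm38.p6.
Ifi203 (chr1:173942508-173942567, minus strand): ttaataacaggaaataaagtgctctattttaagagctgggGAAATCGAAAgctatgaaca
Ifi207 (chr1:173741825-173741884, minus strand): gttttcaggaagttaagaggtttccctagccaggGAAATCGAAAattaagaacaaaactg
Ifi211 (chr1:173913062-173913121, minus strand): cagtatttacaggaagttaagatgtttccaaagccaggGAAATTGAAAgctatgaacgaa
Gbp2 (chr3:142620588-142620647, plus strand): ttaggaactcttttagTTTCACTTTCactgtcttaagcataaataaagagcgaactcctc
Gbp3 (chr3:142559969-142560028, plus strand): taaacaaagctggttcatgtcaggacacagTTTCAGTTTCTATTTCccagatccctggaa
Gbp7 (chr3:142530261-142530320, plus strand): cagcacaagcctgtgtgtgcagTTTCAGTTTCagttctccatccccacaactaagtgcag
Ifi209 (chr1:173630784-173630843, plus strand): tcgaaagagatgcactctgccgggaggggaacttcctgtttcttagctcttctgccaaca

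In the Gbp genes the match is the reverse complement, and in Gbp3 a pair of matches overlaps. The stretches of Ifi207 and Ifi211 had 46 identical bases over an ungapped overlap of 56 (82.1%), the most of any pair of these stretches. Ifi203 and Ifi211 had 34 of 58 (58.6%), and Ifi203 and Ifi207 had 29 of 54 (53.7%). No other pair was above 50%, although each value is the best over many shifts of the stretches. Ifi209, the last one shown, had no match in its window, while Ifi205 had matches at -134 and 24, and Gbp5 at -165. The letters TTCNNNGAA, the core of a gamma-activated sequence, read the same on both strands. They occurred in 8.30% of all promoters, and among the members in Gbp5 at -245 and -52 and in Gbp7 at -106 and -87. A match of letters is a description and shows no binding.

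Cells with at least 500 detected genes and at most 10% mitochondrial unique molecular identifiers (UMIs) were kept, which were 6269 of 6455 control barcodes and 5663 of 5865 mutant barcodes. They held 163618835 and 131469887 UMIs, with medians of 23978 and 21734 UMIs per cell. The libraries had 8 barcodes in common. Levels are UMIs summed over cells and given per 1000000 UMIs of those cells (CPM). Each UMI stands for 1 captured transcript end whatever the length of the transcript, so no division by length was made. Values in parentheses are 95% intervals that cover only counting error, since with 1 library per genotype no difference has a replicate check and no test was possible. Arid1a had 51.9 CPM in the control library and 20.4 CPM in the mutant one, lower although not at 0, and transcripts of a recombined allele that keep the 3′ end are still counted. The 6 listed macrophage and monocyte markers were all detected and summed to 11955 CPM in the control library and 7743 CPM in the mutant one. Most of this sum was Lyz2, at 10803 and 5432 CPM. The other listed markers were higher in the mutant library, with Csf1r at 256 and 402 CPM. Their log2 ratios of mutant over control were 0.36 for Cd68, 0.58 for Dab2, 0.65 for Csf1r, 1.86 for Adgre1 and 2.08 for Lgmn. The 4 neutrophil markers summed to 264 CPM in the control library and 1982 CPM in the mutant one, and the 4 class II markers to 28.7 and 116 CPM, with none of these at 0. Gates on these markers held 16 control and 83 mutant cells (neutrophil) and 9 and 60 cells (class II). A gate on stromal markers took 3 cells of each library.

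Ifi200 members were more abundant in the mutant library as a group. Summed over the 6 genes, the level was 297 CPM in the control library (294 to 299) and 890 CPM in the mutant library (884 to 895), a log2 ratio of 1.58 (1.57 to 1.60). Without the cells of the neutrophil, stromal and class II gates the log2 ratio was 1.59. Ifi204, a nuclear member related to human IFI16, had 53.5 CPM in the control library and 230 CPM in the mutant one. Its log2 ratio was 2.11 (2.07 to 2.14), close to that of the group's middle genes. Ifi203, another nuclear member, had 45.6 and 176 CPM, a log2 ratio of 1.95 (1.91 to 1.99).

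Ifi209 and Ifi211, which are less studied, differed most. Ifi209 had 15.6 CPM in the control library and 86.2 CPM in the mutant one, a log2 ratio of 2.47 (2.41 to 2.53). Ifi211 had 28.8 and 144 CPM, a log2 ratio of 2.32 (2.27 to 2.37). Ifi205 was counted with few UMIs, 429 in the control library and 1629 in the mutant one, or 2.62 and 12.4 CPM. Its log2 ratio of 2.24 (2.09 to 2.40) lay beside those of Ifi211 and Gbp2. Ifi207 stood apart from the other 5. It had 150 CPM in the control library and 241 CPM in the mutant one, a log2 ratio of 0.68 (0.65 to 0.70). The high control level of Ifi207 also set the family sum, since the median log2 ratio over the 6 genes was 2.17.

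Gbp members were higher in the mutant library by a like amount. The 4 genes summed to 31.9 CPM in the control (31.1 to 32.8) and 105 CPM in the mutant library (103 to 107), a log2 ratio of 1.72 (1.67 to 1.76). Without the gated cells of other types it was 1.71. Gbp2, a GTPase recruited to bacteria and to vacuoles, had 9.36 CPM in the control library and 44.0 CPM in the mutant one, with the highest ratio of the 4 at 2.23 (2.15 to 2.31). Gbp3 had 6.85 and 23.2 CPM, a log2 ratio of 1.76 (1.66 to 1.86). Gbp5, known as an activator of the Nlrp3 inflammasome, had 1.58 and 5.20 CPM, a log2 ratio of 1.72 (1.51 to 1.93) that rests on 258 and 683 UMIs. Gbp7 had 14.1 and 32.5 CPM, a log2 ratio of 1.20 (1.13 to 1.28), the lowest of the 4.

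**Figure D1:**
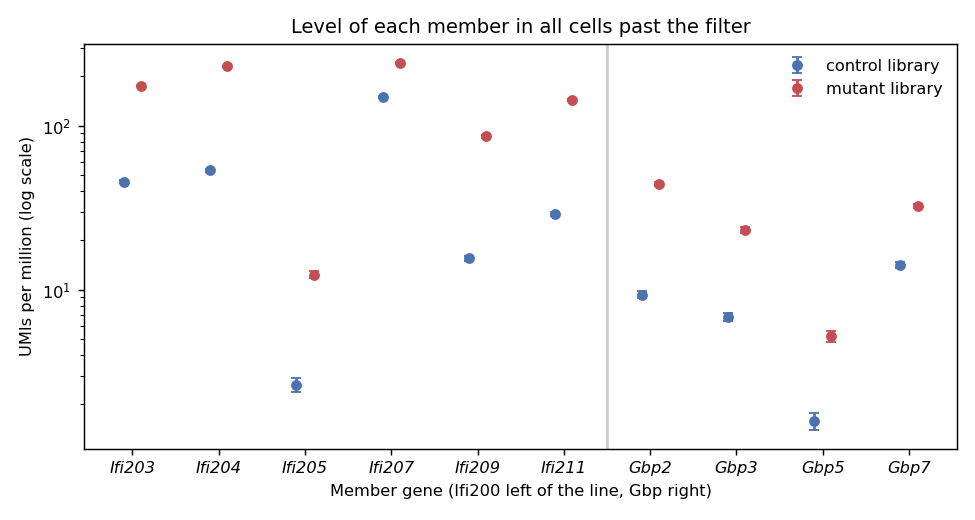
Level of each member in CPM (log axis) in the control (blue) and mutant (red) library, over all cells past the filter, with 95% exact Poisson intervals that cover counting error only. The mutant point lies above the control point for each of the 10 genes, with the smallest gap for Ifi207 (150 and 241 CPM) and the widest for Ifi209 (15.6 and 86.2 CPM).

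Of the 10 members, 9 were at least 2-fold higher in the mutant library, all but Ifi207. Among the 5219 genes that averaged 20 CPM or more over the libraries, 5.65% were, while 1.13% were 2-fold lower. Of the members, 7 reached that mean, of which 6 were past 2-fold, and Ifi205, Gbp3 and Gbp5 did not reach it. The median log2 ratio of all 5219 genes was 0.02, and 95% of them lay below 1.07. Within this ranking Ifi209 stood at place 31, Ifi211 at 43, Gbp2 at 46, Ifi204 at 51 and Ifi203 at 67. Gbp7 followed at place 206, and Ifi207 at 539.

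Copies within the families are alike at the 3′ ends that were sequenced, so counts of some members may draw on reads of others. Words of 50 bases from the last 500 bases of annotated transcripts (GENCODE M39) were looked for in the whole transcripts of all other genes, so sharing need not be mutual. Ifi211 shared 79.4% of its words with another gene, and every shared word was found in Ifi205 and some also in Mndal. Ifi205 in turn shared 38.9% of its words, all of them with Ifi211. Ifi209 shared 47.8% with Ifi214, a relative counted with 39 and 276 UMIs. Ifi203 shared 10.3%, mainly with a pseudogene, Ifi203-ps. The other members shared little, with 3.50% for Gbp2 (with Gbp2b), 2.75% for Gbp3 (with Gbp7), 1.77% for Ifi204 and 0.338% for Gbp5, and no word from the ends of Ifi207 and Gbp7 was found in another gene. Cell Ranger by default leaves out reads that match several genes, and the settings used here were not given in the sources used. The separate values of Ifi205, Ifi211 and Ifi209 are therefore uncertain, while those of Ifi204, Ifi207, Gbp2, Gbp3, Gbp5 and Gbp7 hardly depend on shared words.

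The relatives of the members were examined from a list of both families. Among Ifi200 relatives, 7 of 10 symbols were in the gene table and 3 averaged 20 CPM or more, of which 2 were at least 2-fold higher in the mutant library and none was 2-fold lower. These were Ifi206, with 3.06 and 46.4 CPM and a log2 ratio of 3.92 (3.79 to 4.05), and Mndal, with 68.7 and 227 CPM and a ratio of 1.72 (1.69 to 1.75). The third was Aim2, the cytosolic DNA sensor, with 26.1 and 37.1 CPM and a ratio of 0.51 (0.45 to 0.57). Below that mean, Ifi213 had a ratio of 4.02 (3.87 to 4.18), Ifi208 of 3.65 (3.45 to 3.85) and Ifi214 of 3.14 (2.65 to 3.66). Their control levels were all under 3 CPM, and each shares 3′ words with a relative or member, as does Mndal with Ifi205 and Ifi211. Ifi206 shares 26.3% of its 3′ words, mostly with Gm18752, another annotated gene, so its separate count is uncertain too. Ifi202b went the other way, with 73 UMIs in the control library and 12 in the mutant one, a ratio of -2.29 (-3.31 to -1.40).

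Of the Gbp relatives, 6 of 7 symbols were in the gene table and none had a mean of 20 CPM. Gbp9 had 3.01 and 13.3 CPM, a log2 ratio of 2.14 (1.99 to 2.28). Gbp4 had a ratio of 2.52 (2.15 to 2.91) from 72 and 332 UMIs, Gbp6 of 4.08 (3.35 to 4.92) from 16 and 218 UMIs, and Gbp8 of 1.86 (1.16 to 2.61) from 23 and 67 UMIs. Gbp2b had 15 control and 2 mutant UMIs, a ratio of -2.59 (-5.76 to -0.49), and Gbp10 had 0 and 1. Gbp4, Gbp8 and Gbp9 overlap each other on 1 strand, and Gbp6 shares 71.3% of its 3′ words, so their separate counts are uncertain. Immunity-related GTPases, which act beside Gbp proteins on pathogen vacuoles, were higher in the mutant library for all 7 genes found. Of these 3 averaged 20 CPM or more, and all 3 were past 2-fold: Irgm1 at 1.81 (1.76 to 1.86), Igtp at 2.05 (1.97 to 2.13) and Ifi47 at 2.43 (2.36 to 2.49).

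**Figure D2:**
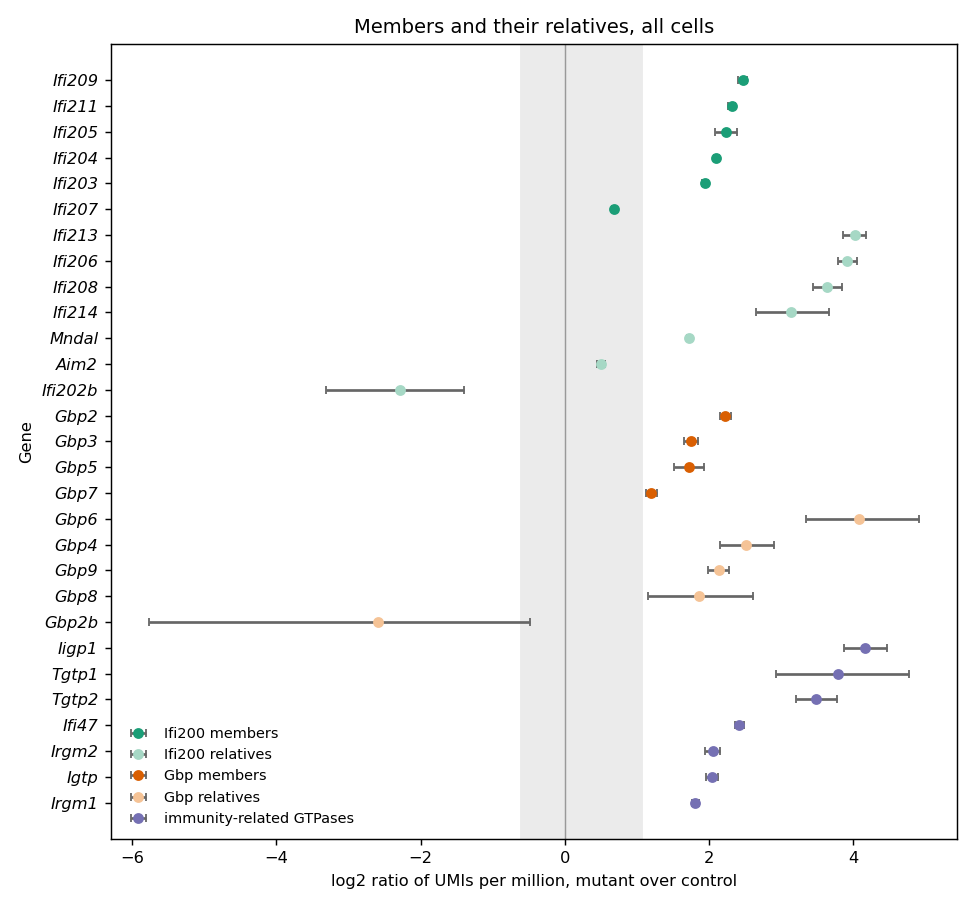
Log2 ratio of CPM, mutant over control, over all cells for members (dark points), their relatives (pale points) and immunity-related GTPases (purple), with 95% exact conditional intervals for counting error. The grey band spans the 5th to 95th percentile of all 5219 genes averaging 20 CPM or more (-0.61 to 1.07). All members but Ifi207 lie to the right of it, and Ifi202b and Gbp2b, with few UMIs, lie to the left of 0.

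Whether single cells carried more members was asked after each cell was thinned at random to 5000 UMIs, which left 6101 control and 5312 mutant cells. At this depth at least 3 of the 10 members were detected in 61.5% of mutant cells (60.2 to 62.9%), and in 11.7% (10.9 to 12.5%) of those from the control. The shares lay 49.9 percentage points apart (48.3 to 51.4). At least 1 member was detected in 70.5% and 95.6% of cells, and at least 6 in 1.08% and 7.04%. The size of these differences depends on depth, and without thinning the shares with at least 3 members were 55.8% and 91.7%. The most frequent number of detected members was 1 in the control library and 3 in the mutant one, and all 10 were seen together in 1 control cell and 9 mutant cells.

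**Figure D3:**
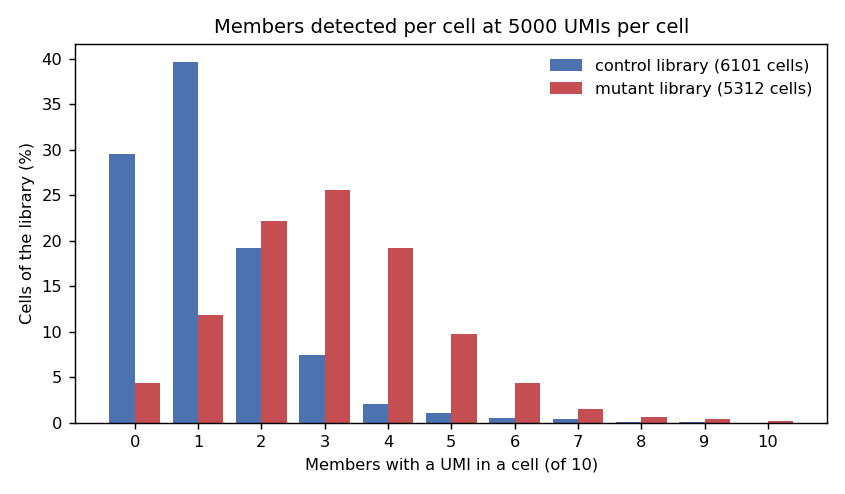
Share of cells (percent of the library) by the number of the 10 members with at least 1 UMI, at 5000 UMIs per cell, for 6101 control cells (blue) and 5312 mutant cells (red). Control cells peak at 1 member (39.6%) and mutant cells at 3 (25.6%).

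The members differed in how many cells carried them. Ifi204 was detected in 21.0% of control and 62.6% of mutant cells, a difference of 41.6 points (39.9 to 43.3). Ifi207 was detected in 48.6% and 65.4%, a difference of 16.7 points (14.9 to 18.5). Thus Ifi207 was the member most often seen in control cells, while in mutant cells its share lay close to that of Ifi204. Gbp members were sparser, with Gbp2 in 3.15% and 13.6% of cells, Gbp7 in 6.44% and 14.8%, Gbp3 in 3.41% and 10.6%, and Gbp5 in 0.705% and 2.30%. Ifi205 resembled them more than the rest of its family, in 1.29% and 4.78% of cells.

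UMIs that are free in the droplets also give counts in cells that do not express a gene. The labels name no cell type that lacks the members, and neutrophil-gate cells served for comparison. At 1000 UMIs per cell, an Ifi200 UMI was seen in 12.0% of 83 mutant neutrophil-gate cells (5.93 to 21.0%), at a median of 9433 UMIs before thinning, and in 55.3% of the 5482 mutant cells outside the gates (54.0 to 56.6%), at a median of 21990. A Gbp UMI was seen in 2.41% (0.293 to 8.43%) and 9.01% (8.27 to 9.80%) of them. Among control cells, 16 in the neutrophil gate gave an Ifi200 UMI in 6.25% (0.158 to 30.2%), against 23.3% of the 6212 cells outside the gates, at medians of 6885.5 and 24076 UMIs.

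Gbp transcripts were concentrated in fewer cells than Ifi200 transcripts. At 5000 UMIs the median cell had 1 Ifi200 UMI in the control library and 4 in the mutant one. A Gbp UMI was found in 11.6% of control and 32.5% of mutant cells. The 5% of cells with most held 59.7% of all Gbp UMIs in the control library and 43.1% in the mutant one, compared with 23.6% and 16.5% of Ifi200 UMIs, although a gene set with fewer UMIs is concentrated by sampling alone. The variance over the mean of UMIs per cell was 3.06 and 4.91 for Gbp2, where a Poisson count gives a value of 1. It was 1.29 and 1.30 for Ifi207, and 1.21 and 1.25 for Gbp7. Gbp2 thus had the most uneven counts of the 10, with up to 18 UMIs in a control cell and 28 in a mutant cell, and Ifi205 followed at 1.97 and 2.65.

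Cells were then divided by 2 gates at 5000 UMIs. The OC gate took cells in which the OC transcripts Acp5, Ctsk, Dcstamp and Mmp9 summed to 3 UMIs or more, and the cycling gate asked the same of the proliferation transcripts Aurka, Cdk1, Mki67 and Top2a. In the control library 2211 cells were in the cycling gate alone, 255 in both, 330 in the OC gate alone and 3305 in neither. In the mutant library these were 1718, 59, 113 and 3422 cells. The few OC-gate cells of the mutant library also differed in make-up, since 46.9% of its OC-alone cells carried no UMI of Ctsk, Mmp9 or Dcstamp, compared with 8.79% in the control, and entered the gate on Acp5. Levels by state use all UMIs of the cells of a gate.

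In the control library, Ifi200 members other than Ifi207 were lower in OC-alone cells than in cells in neither gate. Ifi203 had 22.9 CPM in OC-alone cells against 56.4 CPM in cells in neither gate, a log2 ratio of -1.30 (-1.50 to -1.10). Ifi204 had 34.2 against 65.2 CPM, a ratio of -0.93 (-1.10 to -0.77). Ifi209 was at -1.23 (-1.58 to -0.89), and Ifi211 was at -1.20 (-1.45 to -0.96). These 4 kept their sign under all 8 other ways of setting the gates or leaving out cells. Ifi205 was at -2.51 (-3.97 to -1.37) from only 6 UMIs in OC-alone cells, and its sign turned in 1 of those 8. Ifi207 had 175 against 155 CPM, a ratio of 0.17 (0.10 to 0.25). Summed, the Ifi200 members had 256 and 334 CPM in these cells, a ratio of -0.39 (-0.45 to -0.33).

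Gbp members differed in direction between these control cells. Gbp7 was higher in OC-alone cells, at 23.2 against 13.3 CPM with a log2 ratio of 0.80 (0.58 to 1.01), and so was Gbp3 at 0.47 (0.13 to 0.79). Both signs held under the 8 other settings. Gbp2 was lower at -0.83 (-1.22 to -0.46), turning sign in 1 of the 8, and the interval of Gbp5 spanned 0, at -0.37 (-1.41 to 0.52). Of the 10 members, 4 were at least 2-fold lower in control OC-alone cells (Ifi203, Ifi205, Ifi209 and Ifi211) and none was 2-fold higher. Counted over the 4 members averaging 20 CPM or more in these cells, it was 2 (Ifi203 and Ifi211). The count of 4 ranged from 0 on unthinned gates to 7 with gates at 2000 UMIs. Among 4942 genes averaging 20 CPM or more in these cells, 4.07% were 2-fold lower and 1.58% were 2-fold higher.

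In the mutant library, the direction of the same contrast depended on the gates for these Ifi200 members. Ifi203 had 205 CPM in OC-alone cells and 176 CPM in cells in neither gate, and Ifi204 had 280 and 236 CPM. Ifi209 had 92.5 and 87.4 CPM, and Ifi211 had 183 and 152 CPM. The sign of the ratio held under 5 of the 8 other settings for Ifi203 (lowest value -1.03), 4 for Ifi209 (-0.84), and 6 each for Ifi204 and Ifi211 (-0.20 and -0.39). The sum of the Ifi200 members was 1123 against 901 CPM, a log2 ratio of 0.32 (0.27 to 0.37), and no direction can be given for it, since it was -0.26 with gates at 2000 UMIs and -0.09 with 5 UMIs needed for a gate. Gbp members were higher in the mutant OC-alone cells at these gates and under the 8 other settings, over which the ratio of Gbp2 ranged from 0.09 to 2.21. Gbp2 had 165 against 46.4 CPM (log2 ratio 1.83, 1.69 to 1.97), and Gbp7 had 85.7 against 31.0 CPM (1.47, 1.27 to 1.66). Gbp3 had 52.2 against 22.1 CPM (1.24, 0.98 to 1.48), and Gbp5 had 18.9 against 4.87 CPM (1.96, 1.52 to 2.38).

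In total 5 of 10 members were at least 2-fold higher in mutant OC-alone cells than in cells in neither gate, the 4 Gbp members and Ifi205. Counted over the 9 members averaging 20 CPM or more in these cells, which leaves out Gbp5, it was 4. The count of 5 fell to 1 with gates at 2000 UMIs, to 0 on unthinned gates and to 2 with 5 UMIs needed for a gate. Among 5204 genes averaging 20 CPM or more there, 1.48% were 2-fold higher and 1.35% 2-fold lower. A few cells carried much of this. Of the 224 thinned Gbp UMIs in the 113 cells, 40.2% were in the 5 highest cells, and without these 5 the mean was 1.24 UMIs per cell, compared with 1.98 with them and 0.583 in the cells in neither gate. Gbp2 was detected in 34 of the 113 cells, and a single cell held 28 of its 128 thinned UMIs. Ifi205, at 42.5 against 13.5 CPM, was detected in 10 of these cells, of which 1 held 10 of its 26 thinned UMIs, and its sign turned in 2 of the 8 other settings. A Gbp UMI was seen in 55.8% of mutant OC-alone cells (46.1 to 65.1%) and 32.7% of those in neither gate (31.2 to 34.3%). The control shares were 19.1% (15.0 to 23.8%) and 11.4% (10.4 to 12.6%).

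**Figure D4:**
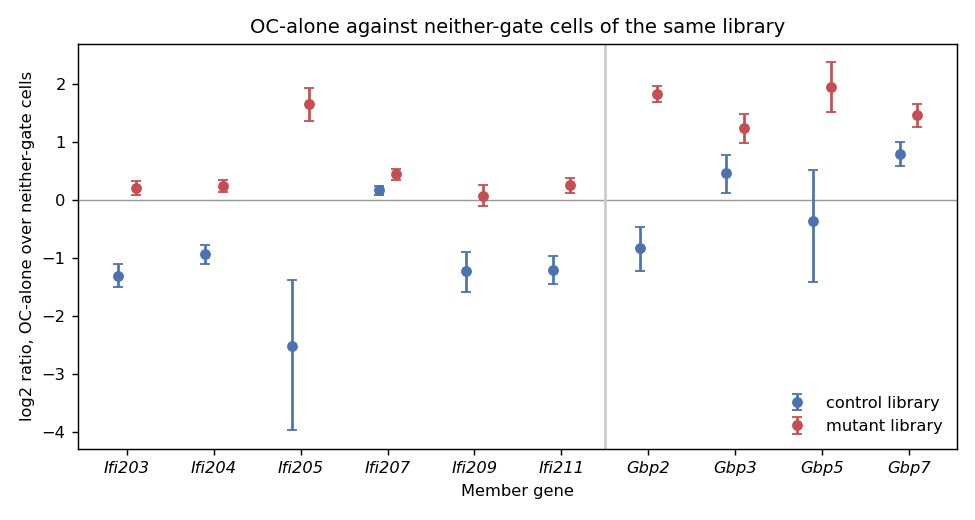
Log2 ratio of the level in OC-alone cells over that in cells in neither gate of the same library, for each member, in the control (blue, 330 and 3305 cells) and mutant (red, 113 and 3422 cells) library, with 95% exact conditional intervals for counting error. Ifi203, Ifi204, Ifi205, Ifi209, Ifi211 and Gbp2 lie below 0 in the control library, with Gbp5 spanning 0, while in the mutant library all 4 Gbp members and Ifi205 lie above 1.

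Cycling-alone cells were compared with cells in neither gate in the same way. At these gates their sums differed less than those of OC-alone cells in the mutant library. In the control library the differences were of like size. Among control cells the Ifi200 sum was 267 CPM in cycling-alone cells, with a log2 ratio to cells in neither gate of -0.33 (-0.36 to -0.30), and the Gbp sum was 28.8 CPM at -0.23 (-0.31 to -0.14). In the mutant library these ratios were -0.07 (-0.09 to -0.05) and -0.19 (-0.24 to -0.14). Ifi211, for example, had 24.1 against 36.2 CPM in the control and 128 against 152 CPM in the mutant library. For some members the lowest control level stood in cells of both gates, with 18.2 CPM for Ifi203, 24.2 CPM for Ifi204, 10.8 CPM for Ifi211 and 2.50 CPM for Gbp2. Others did not follow this, as Ifi207 had 155 CPM and Gbp7 had 20.2 CPM in these cells, compared with 141 and 13.1 CPM in cycling-alone cells.

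Mutant over control, the Ifi200 sum was higher in each of the 4 states. The log2 ratio was 1.43 (1.41 to 1.45) in cells in neither gate, 1.69 (1.66 to 1.71) in cycling-alone cells, 1.82 (1.72 to 1.92) in cells of both gates and 2.13 (2.06 to 2.21) in OC-alone cells. For the Gbp sum it was 1.63 (1.57 to 1.70), 1.67 (1.59 to 1.75), 1.99 (1.72 to 2.25) and 2.98 (2.81 to 3.16) in the same order. The ratio in OC-alone cells was thus the highest of the 4 for both sums at these gates. OC-alone cells stayed highest under 5 of the 8 other settings for the Ifi200 sum and 6 of 8 for the Gbp sum. With gates at 2000 UMIs the Ifi200 ratio was 1.63 in OC-alone and 1.69 in cycling-alone cells, and the Gbp ratio was 2.27 in OC-alone cells and 2.55 in cells of both gates. With 5 UMIs needed for a gate, cells of both gates were at 2.16 (Ifi200) and 2.65 (Gbp), beside 1.85 and 2.61 in OC-alone cells. On unthinned gates the Ifi200 ratio was 1.56 in OC-alone cells and 1.77 in cells of both gates, and the Gbp ratio was 1.79 beside 1.76 in cells in neither gate. With an OC gate without Acp5, added after the data were seen, OC-alone ratios were 2.40 (2.27 to 2.52) and 3.43 (3.18 to 3.68), from 216 control and 24 mutant cells.

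Single members followed these sums to different degrees. In OC-alone cells Gbp2 had 6.65 CPM in the control library and 165 CPM in the mutant one, a log2 ratio of 4.64 (4.25 to 5.04), and Ifi209 had 7.81 and 92.5 CPM, a ratio of 3.57 (3.19 to 3.96). Ifi211 was at 3.54 (3.27 to 3.81), Ifi203 at 3.16 (2.93 to 3.39) and Ifi204 at 3.03 (2.84 to 3.22). Ifi207 remained the lowest at 0.88 (0.76 to 1.00), with 175 and 321 CPM. Under the 8 other settings all these ratios kept their sign but reached outside their counting intervals. They ranged from 2.505 to 5.496 for Gbp2, from 2.77 to 4.02 for Ifi209 and from 2.45 to 3.96 for Ifi211. The range was 1.88 to 3.38 for Ifi203, 2.18 to 3.24 for Ifi204 and 0.50 to 1.13 for Ifi207. In every state, 9 of the 10 members were at least 2-fold higher in the mutant library. The members averaging 20 CPM or more, the filter for all genes, numbered 9 in OC-alone cells and 7 in each other state. Of these, all but Ifi207 were past 2-fold in each state. The share of all genes so filtered that were past 2-fold was 4.97% in cells in neither gate, 5.51% in cycling-alone cells, 8.01% in cells of both gates and 9.18% in OC-alone cells.

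**Figure D5:**
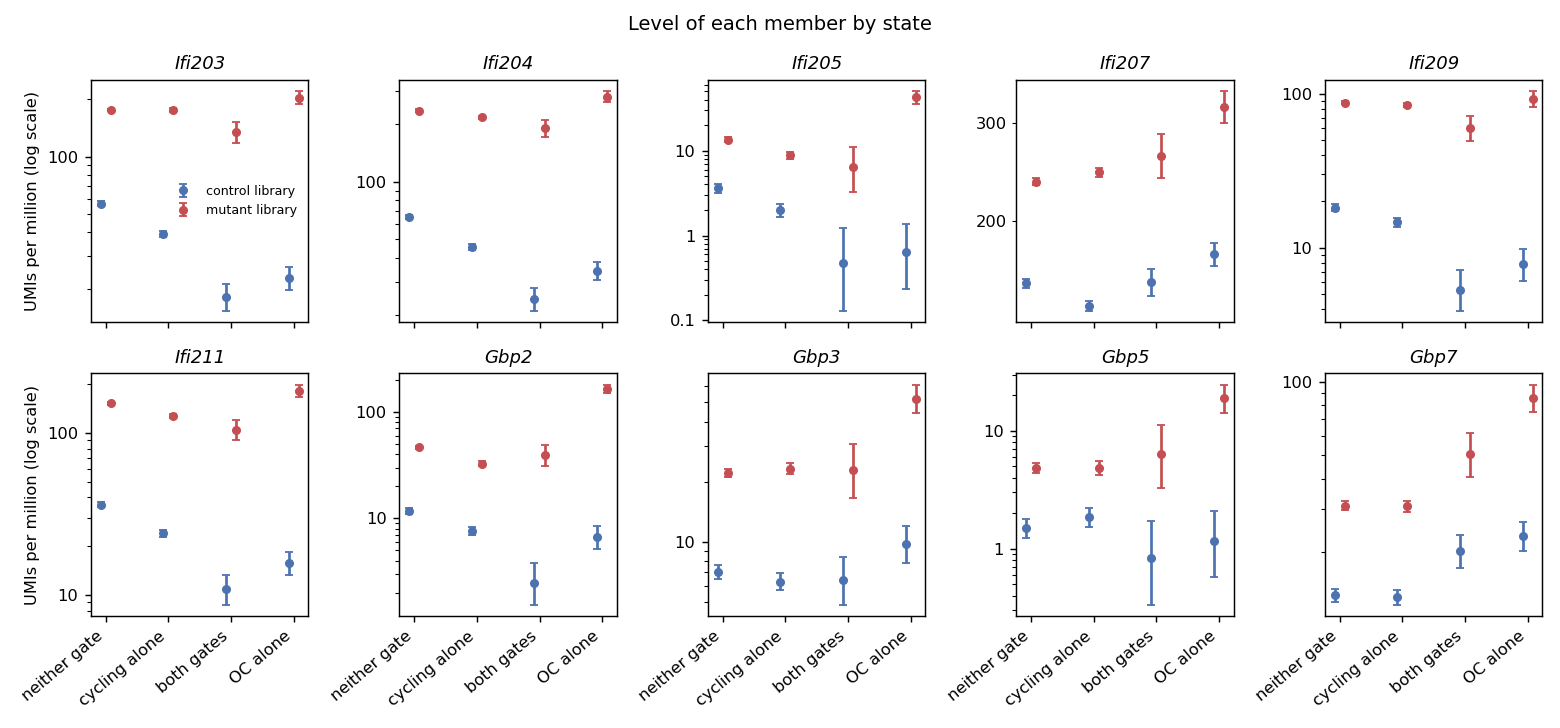
Level of each member in CPM (log axes that differ between panels) in cells in neither gate, in the cycling gate alone, in both gates and in the OC gate alone, for the control (blue) and mutant (red) library, with 95% exact Poisson intervals for counting error. Mutant points lie above control points in every panel and state. Among control cells the Ifi203, Ifi204, Ifi209 and Ifi211 points are lower in the 2 states with OC transcripts than in cells in neither gate.

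Across single cells, members varied together only weakly at 5000 UMIs. The Pearson correlation of log2(1 + UMIs) between a pair of Ifi200 members had a median of 0.17 over 15 pairs in both the control (6101 cells) and the mutant library (5312 cells). Between pairs of Gbp members the median was 0.13 and 0.17 over 6 pairs, and between the families 0.13 and 0.13 over 24 pairs. Highest among control pairs was that of Ifi205 and Gbp2 at 0.31, with 0.29 in the mutant library. The family sums correlated at 0.25 (Spearman 0.18) in the control library and 0.28 (0.21) in the mutant one. All pairs share the library and the sampling of few UMIs, so values this low are given as description.

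Of 5209 genes averaging 20 CPM or more that were neither members nor listed relatives, those whose counts followed the members most were the same 5 for both families. They were Ifit1, Ifit2 and Ifit3, antiviral proteins of which Ifit1 binds viral RNA, Isg15, a ubiquitin-like modifier, and Rsad2, an antiviral enzyme. Their correlation with the Ifi200 sum was 0.28 to 0.36 in the control library and 0.30 to 0.38 in the mutant one, and with the Gbp sum 0.30 to 0.34 and 0.30 to 0.33. The 95th percentile of all these genes was 0.06 and 0.08 for the Ifi200 sum, and 0.04 and 0.06 for the Gbp sum. These 5 were themselves higher in the mutant library, with log2 ratios between 1.53 for Rsad2 and 2.57 for Ifit3.

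Among partners in inflammasomes and DNA sensing, 7 of 12 averaged 20 CPM or more. Of these 2 were at least 2-fold higher in the mutant library and none was 2-fold lower, and both were at the edge of the threshold: Casp1, the inflammasome protease, at a log2 ratio of 1.01 (0.96 to 1.05), and Nlrp3, a sensor, at 1.00 (0.94 to 1.06). Under TMM and median-of-ratios scaling, and with totals free of mitochondrial and ribosomal protein genes, neither reached 2-fold. Pycard, the adaptor that joins pyrin-domain sensors to Casp1, had 245 and 286 CPM, a ratio of 0.23 (0.21 to 0.25). Gsdmd, the pore-forming target of Casp1 and Casp4, was at -0.15 (-0.19 to -0.12). Casp4 was near the threshold as well, at 0.98 (0.91 to 1.05), and Tbk1 was at 0.34 (0.29 to 0.40). Cgas, the sensor that makes the messenger for Sting1, was at 0.38 (0.33 to 0.44). Sting1, below the mean of 20 CPM, was at -0.41 (-0.52 to -0.31). Also below it, Nlrc4 was at 0.13, Irf3 at 0.18 and Il18 at 1.37 (1.28 to 1.46). Il1b was at 5.56 (4.41 to 7.02), from 6 and 227 UMIs. None of the 7 partners averaging 20 CPM or more had a ratio above 1.01, and of the 7 members averaging as much, 6 were past 2-fold.

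Of 9 regulators in interferon signaling, 7 averaged 20 CPM or more, of which 1 was at least 2-fold higher in the mutant library. This was Stat2, with 9.90 and 53.7 CPM and a log2 ratio of 2.44 (2.36 to 2.52). Irf9, its DNA-binding partner, was at 0.69 (0.63 to 0.74), and Irf8, a factor of the myeloid lineage, at 0.21 (0.15 to 0.26). The receptor genes Ifnar1 and Ifnar2 were at 0.38 and 0.36, and Ifngr1 and Ifngr2 at 0.87 and 0.39. Irf1, below the mean of 20 CPM, had 9.94 and 24.8 CPM, a ratio of 1.32 (1.23 to 1.41).

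Genes beside the clusters were compared as well. For the Ifi200 cluster they cannot show where the difference ended, since the near ones are relatives and the others lie far off. On the side of lower coordinates of the Ifi200 cluster, the 3 nearest detected genes were Ifi213, Ifi214 and Ifi206, at 31 to 139 kb, which are relatives with the ratios given above. On the other side the nearest detected genes, Fh1, Opn3 and Chml, lay 1565 to 1650 kb away and had log2 ratios of -0.32 (-0.38 to -0.26), -0.74 (-0.94 to -0.53) and 0.17 (-0.01 to 0.34). Around the Gbp cluster, Pdlim5 at 97 kb was at 0.30 (0.27 to 0.34). Kyat3 at 62 kb, Gtf2b at 127 kb and Pkn2 at 152 kb on the other side were at -0.33 (-0.55 to -0.11), 0.12 (0.07 to 0.16) and 0.13 (0.08 to 0.17). None of the genes beside the clusters outside both families was 2-fold higher. Among the 5219 genes averaging 20 CPM or more, 5.65% were, so the neighbours are too few to set them apart from that share. The ratios of these neighbours ran from -0.96 in Tspan5 at 3562 kb to 0.71 in Rap1gds1 at 3418 kb, both beside the Gbp cluster.

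Last, mutant cells were divided by whether an Arid1a UMI was seen at 5000 UMIs per cell, with levels taken from the same thinned UMIs. The Ifi200 sum was 868 CPM (832 to 905) in 510 cells with one and 915 CPM (903 to 928) in 4802 cells without. The Gbp sum was 95.7 CPM (84.1 to 108) and 116 CPM (112 to 120). For the control, Ifi200 sums were 299 CPM (286 to 312) in 1341 cells with an Arid1a UMI and 305 CPM (298 to 312) in 4760 cells without. Levels in mutant cells with an Arid1a UMI thus lay close to those of the other mutant cells and far above those of control cells. A UMI from the 3′ end does not show which cells keep an intact allele.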

How the data were processed

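BMDMs in culture with M-CSF and RANKL were sequenced as 1 control and 1 LysM-Cre;Arid1afl/fl library with a 10x Genomics 3′ kit. The deposited matrices hold UMI counts of each gene in each barcode, not normalized, from Cell Ranger 6.1.0 as the authors ran it (per the file headers). The study names GRCm39 as its genome, and the annotation behind the counts was not given in the sources used here. The methods name aggregation of count matrices, which can subsample reads, and whether these counts precede it was not stated. Of 32544 gene identifiers, 31977 matched GENCODE M39 (GRCm39), and all 10 members did. The members and all lists were chosen with earlier results of these data known.

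Counts per 1000000 (CPM) were taken from UMIs summed over cells, with exact Poisson intervals, and log2 ratios got exact intervals conditional on the summed count. Shares have exact binomial (Clopper-Pearson) intervals, and square-and-add gave those of their differences. Intervals are at the 95% level. The total counts per library were 164004706 and 131800059 UMIs before filtering. Cells were thinned without replacement, leaving out 168 control and 351 mutant cells under 5000 UMIs. Doublets were kept, and the highest simulated-doublet scores (333 and 275 barcodes) were removed as an alternative. The neutrophil gate was 5% of UMIs from S100a8 and S100a9, the stromal gate at least 2 UMIs and 0.1%, and the class II gate at least 5 UMIs and 0.2%. Groups came from the genotype in the labels. Named genes are the members, listed relatives, immunity-related GTPases, partners and regulators, the 5 genes most correlated with each family sum in the library where they correlate less, and the 3 detected genes (mean of at least 1 CPM) on either side of each cluster. A listed regulator is not reported here and was left out of the list's counts. Alternatives were other scalings, cell filters, depths, gates and thresholds. Interval coverage was checked on simulated counts. Python 3.11.15, numpy 2.4.6, scipy 1.17.1, pandas 2.3.3, scikit-learn 1.9.0, matplotlib 3.10.9 and, for TMM factors, edgeR 4.0.16 in R 4.3.3 were used.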

Additional observations from a re-analysis of the deposited data

How the results depend on the processing

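No paired analysis was possible because each genotype had 1 library, and for the same reason leaving out a replicate was not possible. Intervals cover counting error, so depth limits Ifi205, Gbp5 and the mutant OC-alone cells most. All single members kept their direction under every scaling and cell filter tried, and 9 remained the count past 2-fold in each. Counted over the 7 members averaging 20 CPM or more, which was added after seeing the data, it was 6. Without the filter on low values, 16.7% of 18936 genes were past 2-fold, compared with 5.65% with it. Removing high doublet scores, dropping or tightening the cell filter and leaving out the neutrophil, stromal and class II gates kept both family ratios over all cells within their intervals.

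Values outside the counting interval of the reported value, whose cause was not tested, were as follows. TMM scaling gave log2 ratios of 1.52 (Ifi200) and 1.65 (Gbp), median-of-ratios scaling 1.49 and 1.63, totals without mitochondrial and ribosomal protein genes 1.48 and 1.61, and equal weight per cell 1.60 and 1.85. These scalings moved the median of all genes by -0.06, -0.09, -0.11 and 0.01. The share of cells with at least 3 members differed by 17.5 points at 2000 UMIs, 61.7 at 10000 and 35.9 without thinning, and with at least 1 or 6 members by 25.1 and 5.96 points.

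By state, gates at 2000 UMIs gave mutant over control ratios for Ifi200 of 1.60 in both gates, 1.63 in OC alone and 1.55 in neither, and for Gbp of 2.55, 2.27 and 1.71. There, OC alone over neither in the mutant library reversed to -0.26 for Ifi200 and was 0.67 for Gbp. Unthinned gates gave Ifi200 ratios of 1.57 in cycling alone, 1.56 in OC alone and 1.32 in neither, Gbp ratios of 1.68 in both gates, 1.79 in OC alone and 1.76 in neither, and OC alone over neither ratios of -0.10 (control) and 0.14 (mutant) for Ifi200 and 0.51 and 0.54 for Gbp. A cycling gate without Mki67 gave 1.47 for Ifi200 in neither. With 2 UMIs for a gate, Ifi200 ratios were 1.65 in cycling alone, 1.92 in both, 1.93 in OC alone and 1.38 in neither, Gbp was 2.64 in OC alone, and OC alone over neither was -0.27 for control Ifi200 and 1.32 for mutant Gbp. With 5 UMIs, Ifi200 ratios were 1.72, 2.16, 1.85 and 1.50 in the same order, Gbp ratios 1.81 in cycling alone, 2.65 in both and 2.61 in OC alone, and OC alone over neither in the mutant library reversed to -0.085 for Ifi200 and was 1.10 for Gbp. The remaining settings were chosen after seeing the data. An OC gate without Acp5 gave 1.52 (both gates) and 2.40 (OC alone) for Ifi200, 3.43 (OC alone) for Gbp, and OC alone over neither in the mutant library of 0.53 and 2.06. Without the neutrophil, stromal and class II gates these last ratios were 0.26 and 1.48.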

Other observations

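Cells of the class II gate, a small group selected on Cd74 and 3 class II genes, had summed levels of the members as follows. The Ifi200 sum was 662 CPM (541 to 801) in 9 control cells and 1393 CPM (1313 to 1476) in 60 mutant cells, and the Gbp sum was 107 CPM (62.4 to 171) and 303 CPM (266 to 343). In the mutant cells Gbp2 had 197 CPM (168 to 230) and Ifi205 had 61.3 CPM (45.5 to 80.8), compared with 44.0 and 12.4 CPM over all mutant cells. Ifi207 differed little between the libraries in this gate, with 309 CPM (228 to 408) in the control library and 300.4 CPM (264 to 340) in the mutant one. At 1000 UMIs per cell, an Ifi200 UMI was seen in 22.2% of the control cells of this gate (2.81 to 60.0%), compared with 23.3% of control cells outside the gates, and in 63.3% (49.9 to 75.4%) compared with 55.3% in the mutant library. A Gbp UMI was seen in 0 of 9 control cells (up to 33.6%) and 16.7% of the mutant cells (8.29 to 28.5%), compared with 2.91% and 9.01% outside the gates. The intervals of these shares are wide and hold the shares outside the gates, so the shares cannot tell the groups apart. At this depth mutant cells had a mean of 1.32 Ifi200 UMIs in the gate and 0.923 outside the gates. For Gbp UMIs these means were 0.35 and 0.113. In control cells they were 0.222 and 0.295 (Ifi200), and 0 and 0.0314 (Gbp). Neutrophil-gate cells had a lower level, with an Ifi200 sum of 320 CPM (284 to 359) in 83 mutant cells.

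Among the listed cytokines, Il1b and Ifnb1 had few UMIs and nearly all of them in the mutant library. Il1b, whose product Casp1 cleaves, had 6 UMIs in the control library and 227 in the mutant one, and Ifnb1, a type I interferon, had 2 and 100. Il18, whose product Casp1 also cleaves, had 8.82 and 22.8 CPM, a log2 ratio of 1.37 (1.28 to 1.46).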
